A study of Mus musculus with 8 samples.

Results

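The genes described here encode the subunits of the constitutive proteasome and its regulators. They were taken by name, as every gene of the deposited table whose symbol is *Psma*, *Psmb*, *Psmc*, *Psmd* or *Psme* followed by a number. *Psmb8*, *Psmb9* and *Psmb10*, which belong to the immunoproteasome, were set apart, and genes with a mean under 50 normalized counts (8 libraries) were left out. Of 40 such genes 38 had that mean, in a table of 24303 genes of which 12028 had it. The other two were *Psma8*, known as a testis subunit, at a mean of 2.09, and *Psmb11*, known from the thymic cortex, at 1.48. The lowest of the 38 was *Psme2*, at a mean of 533. The 38 genes lie on 15 chromosomes.

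RNA-Seq was performed on P14 CD8 T cells, which carry a transgenic TCR for the GP33 peptide and came from mouse spleen. Naive cells of all 4 conditions were first activated for 2 days on plates coated with anti-CD3 and anti-CD28. Effector cells are the cells sorted on day 7. Their sample labels give no stimulation schedule, and the paper elsewhere labels day 7 cells as stimulated for 7 days. Acute-2d cells received no GP33 after the plates and were kept without peptide until day 19. Acute-7d cells were given GP33 repeatedly until day 7 and then kept without peptide until day 19. T_Dysf cells (labelled Dysfunctional) were given GP33 repeatedly until day 19, with TGF-β1 from day 7 on. T_Dysf therefore differed from Acute-7d in both antigen and TGF-β1, and the 2 cannot be told apart here. Effector differed from the Acute conditions in day of sorting and in time without stimulation, which cannot be told apart either. From T_Dysf it differed in day of sorting and in TGF-β1. Viable CD8+ cells were FACS purified before RNA isolation. Each condition had 2 libraries, described by the depositors as biological replicates, and cultures or mice behind them are not named, so p values measure the spread between these libraries.

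The proteasome is the protease that degrades ubiquitin-tagged proteins. Its 20S core is a barrel of outer rings of α subunits, which gate the entrance, and inner rings of β subunits, of which β1, β2 and β5 cut the substrate. The 19S particle caps the barrel: its ATPase ring unfolds the substrate, and its lid and receptors recognize and remove ubiquitin. Activated CD8 T cells grow and divide quickly, and in lymphocytes the catalytic β subunits are exchanged in part for the immunoproteasome forms, which shape the peptides shown on MHC class I.

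The libraries held 19382147 to 24856195 reads on genes, estimated from the value of 1 read in each. The lowest of the 38 genes had 388 to 764 reads in a library, a counting error of 3.62% to 5.07%. The 6 CD8 T cell markers (*Cd3d*, *Cd3e*, *Cd3g*, *Cd8a*, *Cd8b1*, *Trac*) summed to between 56498 and 128267 normalized counts, against 14.6 to 52.8 for 3 CD4 T cell markers, 245 to 1489 for 2 NK cell, 411 to 1174 for 6 myeloid and 46.8 to 101 for 5 erythroid markers. The CD8 sum was highest in T_Dysf, at 128267 and 120592, against 71312.5 or less in every other library. The myeloid sum was 1174 in Effector replicate 1 and 411 in replicate 2, the highest and the lowest of all libraries. The part of either in the proteasome results was not tested. The NK cell sum was highest in Acute-7d, at 1035 and 1489, against 567 and 252 in Effector, 245 and 545 in T_Dysf and 450 and 418 in Acute-2d. By limma 1 of the 2 NK cell markers fell in T_Dysf against Acute-7d, and its part in the proteasome results was not tested. *Cd4* and *Ms4a1* were at 13.0 or less in every library. Of B cell markers *Cd79a* was at 21.4 or less in every library, and *Cd79b* gave 138 and 83.3 in Effector, 136 and 115 in T_Dysf, 72.7 and 83.1 in Acute-2d and 30.1 and 38.4 in Acute-7d. *Cd79b* rose against Acute-7d in T_Dysf by 1.84 ± 0.30 (SE, adjusted p = 0.0307) and in Effector by 1.63 ± 0.30 (SE, adjusted p = 0.0322), and its part in the proteasome results was not tested. These were bulk samples of one cell type scaled to each library, so fewer cells with a transcript and less of it per cell cannot be told apart. Both Effector libraries and Acute-7d replicate 1 carry the prefix RESUB in their library names, whose meaning the labels do not give. Outside Effector only that 1 library carries it.

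Proteasome subunit RNA was highest in Effector cells, intermediate in T_Dysf cells and lowest in the acutely stimulated cells. The 38 genes together gave 87000.0 and 118317 in Effector, 79945 and 75498 in T_Dysf, 63457 and 62669 in Acute-2d and 59045 and 61636 in Acute-7d (normalized counts). Every T_Dysf library lay above all 4 Acute libraries and below both Effector libraries, and the Acute-2d libraries lay slightly above the Acute-7d libraries. These sums were 0.420% and 0.535% of all normalized counts in Effector, 0.373% and 0.348% in T_Dysf, 0.296% and 0.287% in Acute-2d and 0.273% and 0.292% in Acute-7d. The order of means Effector, T_Dysf, then both Acute conditions held in 30 of the 38 genes, compared with 17.5% of all genes with a mean of at least 50. That order takes no account of size: for *Psmd3* the T_Dysf mean of 2691 was close to 2639 in both Acute conditions. Here and below a library pattern is a description with no test of its own.

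**Figure D1:**
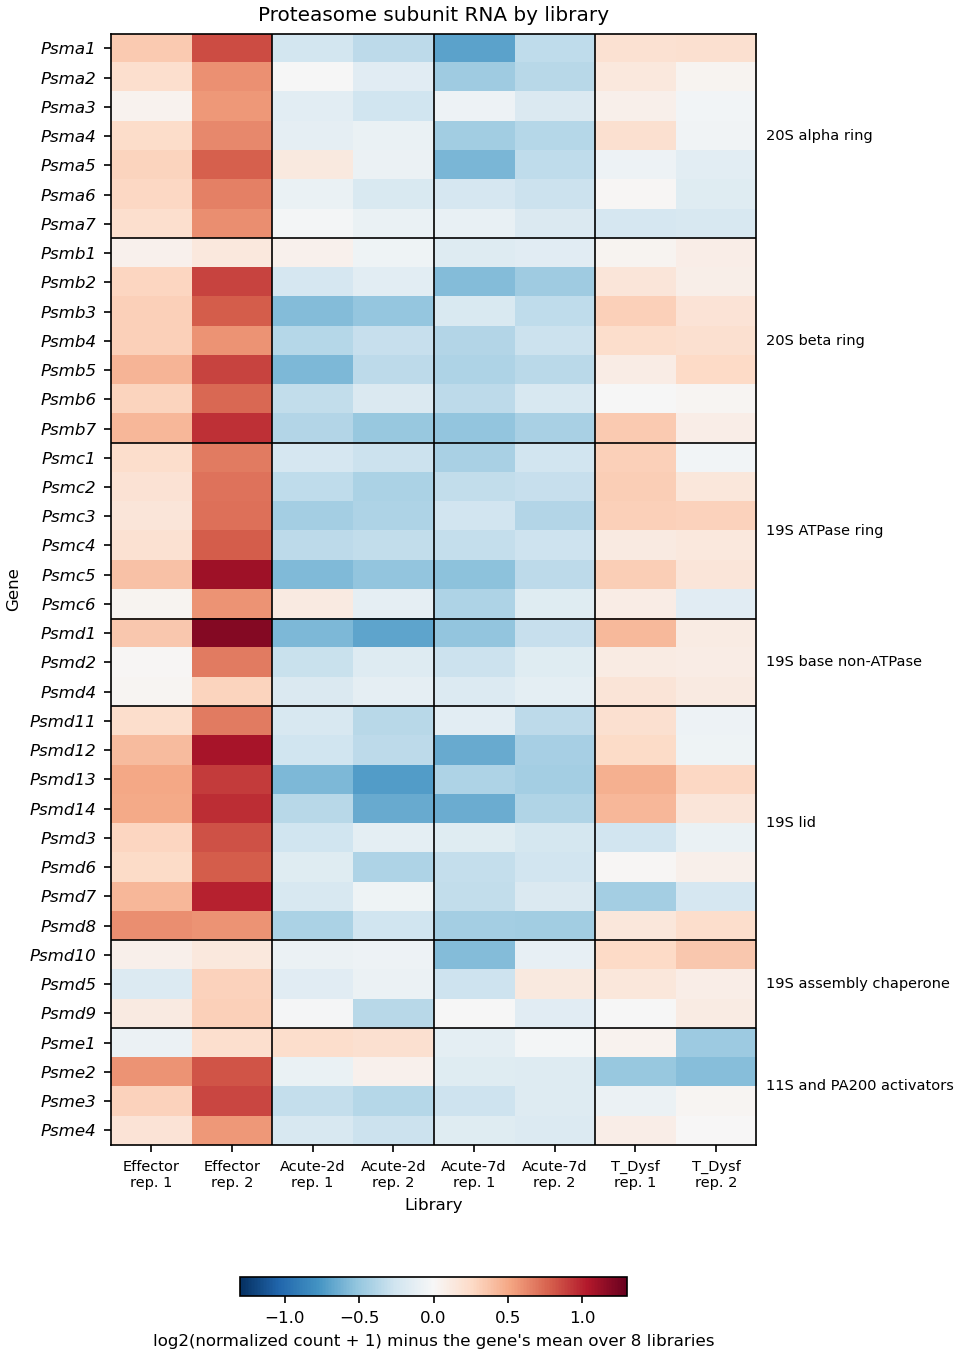
Heatmap of the 38 proteasome genes (vertical axis, by subcomplex) in the 8 libraries (horizontal axis), coloured by log2(normalized count + 1) minus the mean of the gene over all libraries. Both Effector columns are red for most genes and deeper in replicate 2, the 4 Acute columns are mostly blue, and the T_Dysf columns are pale red except for genes such as Psma7, Psmd7 and Psme2.

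Genes were tested with limma on log2(normalized count + 1), with Benjamini-Hochberg adjusted p over all 24303 genes, and a gene is said to have risen or fallen when adjusted p was under 0.05. In Effector compared with Acute-7d, 18 of 38 genes rose, where 7.7% of all genes and 14.0% of those with a mean of at least 50 rose. Of the 38 genes 0 fell, where 12.3% of those with that mean did. Compared with Acute-2d, 15 of 38 rose, against 7.94% of all genes and 14.6% of those with that mean, and 0 fell, against 13.1% of the latter. In T_Dysf compared with Acute-7d, 3 rose (*Psmb4*, *Psmd8*, *Psmd13*), against 4.79% of all genes and 8.07% of those with the mean. This share of calls was near the background. Here 0 of 38 fell, against 7.18% of those with the mean. The same 3 genes rose against Acute-2d, where the background was 5.85% (9.89% of genes with the mean), and *Psme2* fell, where it was 6.01% (9.59%). Compared with Effector, 4 genes fell in T_Dysf (*Psma7*, *Psmd7*, *Psmd8*, *Psme2*), against 7.44% of all genes and 12.7% of those with the mean. In that comparison 0 rose, against 8.14% of all genes and 13.6% of those with the mean. Between Acute-7d and Acute-2d 0 of 38 passed the test by limma, where 0.169% of all genes did, and 1 of 38 had an unadjusted p under 0.05. With Effector and T_Dysf joined against both Acute conditions, 22 of 38 rose, against 10.2% of all genes and 18.1% of those with the mean. In this joined comparison 0 fell, against 15.6% of those with the mean. The shares of these comparisons are also the background for the gene lists described below. The limma F test for any difference among the 4 conditions called 8 of 38 (*Psmb3*, *Psmb4*, *Psmb5*, *Psmb7*, *Psmd8*, *Psmd13*, *Psmd14*, *Psme2*), against 20.2% of all genes and 34.4% of those with the mean. This share was near that of all genes and below that of genes with the mean. The counts varied with the libraries in the fit, also with those outside the comparison, as all 8 share 1 estimate of the spread. Each library was left out in turn, and the share of all genes called in these fits is not given here. The median log2 fold change of the 38 genes was then 0.34 to 0.44 for T_Dysf against Acute-7d. For Effector against Acute-7d it was 0.54 to 1.02. For T_Dysf against Acute-7d the count was 12 without either Effector library and 0 or 1 without any other library. For Effector against Acute-7d it was 32 without Effector replicate 1, 10 without Effector replicate 2 and 1 to 5 without any other library.

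The size of the changes was moderate and mostly in the same direction. The median log2 fold change of the 38 genes was 0.79 for Effector against Acute-7d and 0.75 against Acute-2d, and was positive in 38 and 37 of 38 genes. For T_Dysf it was 0.39 against Acute-7d, positive in 34, and 0.32 against Acute-2d, positive in 32. For T_Dysf against Effector it was -0.37, negative in 36, and for Acute-7d against Acute-2d it was -0.00, negative in 21. Over all genes with a mean of at least 50 the medians of these comparisons ran from -0.04 to 0.02. The comparisons share libraries, Acute-7d and Acute-2d as common controls among them, so their directions are not independent of each other.

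Library by library, both T_Dysf libraries lay above all 4 Acute libraries in 27 of 38 genes (20.3% of all genes, 32.4% of those with a mean of at least 50). They lay below all 4 in 2 genes, *Psma7* and *Psme2* (21.1% of all genes, 28.6% of those with that mean). Both Effector libraries lay above all 4 Acute libraries in 35 of 38 genes (20.5% of all genes, 32.4% of those with that mean). The others were *Psmc6*, *Psmd5* and *Psme1*. They lay above both T_Dysf libraries in 25 of 38 genes (29.7% of all genes, 39.0% of those with that mean). The Effector libraries themselves stood apart: replicate 2 was higher than replicate 1 in 37 of 38 genes, with a median ratio of 1.38, where replicate 2 was higher in 56.2% of genes with a mean of at least 50. The same median ratio was 0.957 in T_Dysf, 0.961 in Acute-2d and 1.06 in Acute-7d. This spread enters the shared error of every comparison. When only the 6 day 19 libraries were fitted, 12 of 38 genes rose in T_Dysf against Acute-7d (background 5.36%), and against Acute-2d 13 rose (6.95%) and *Psme2* fell (6.51%). That fit was added after the values were seen. Its background is over all genes, and in the fit of 8 libraries the share was higher among genes with a mean of at least 50.

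**Figure D2:**
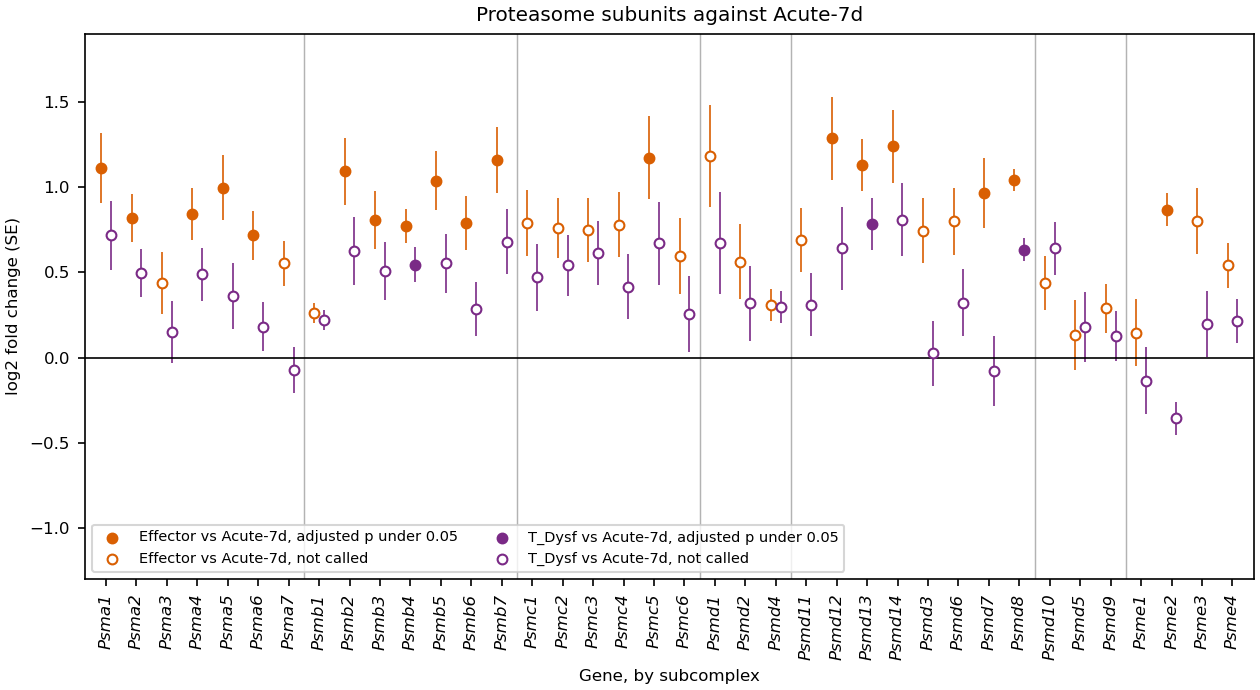
Log2 fold change (vertical axis, bars are the SE from limma) of each of the 38 genes (horizontal axis, by subcomplex) for Effector (orange) and T_Dysf (purple) against Acute-7d. Filled points passed an adjusted p of 0.05, and orange points lie above purple ones for all genes but Psmd5 and Psmd10.

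The α ring of the 20S core has 7 subunits in the list, *Psma1* to *Psma7*. Their summed level was 15679.6 and 20994 in Effector, 13658 and 12798 in T_Dysf, 12498 and 11741 in Acute-2d and 10336 and 10737 in Acute-7d. T_Dysf was thus above all Acute libraries for the ring as a whole, by less than Effector. Against Acute-7d 5 of the 7 rose in Effector (*Psma1*, *Psma2*, *Psma4*, *Psma5*, *Psma6*), with a median log2 fold change of 0.82, and against Acute-2d 0 of 7 passed the test by limma at a median of 0.51, although 7 of 7 had an unadjusted p under 0.05. For *Psma1*, 2799 and 3975 in Effector, 2524 and 2554 in T_Dysf, 1868 and 1747 in Acute-2d and 1361 and 1752 in Acute-7d were measured. Its log2 fold change was 1.11 ± 0.20 (SE, adjusted p = 0.0318) for Effector against Acute-7d. For T_Dysf against Acute-7d it was 0.72 ± 0.20 (SE, adjusted p = 0.107), which missed the threshold although the libraries did not overlap.

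*Psma7* was an exception in this ring. It encodes an α subunit of the same ring as *Psma1*, at chr2:180036374-180042433 (GRCm38, GENCODE annotation). Its level was 2945 and 3858 in Effector, 2178 and 2188 in T_Dysf, 2493 and 2397 in Acute-2d and 2376 and 2222 in Acute-7d. The T_Dysf libraries lay below all others and close to each other. *Psma7* fell in T_Dysf compared with Effector, with a log2 fold change of -0.63 ± 0.13 (SE, adjusted p = 0.0415), and was not called against Acute-7d (-0.07 ± 0.13, SE). *Psma5* had the largest difference of the 38 genes between the Acute conditions, -0.49 ± 0.19 (SE, adjusted p = 0.7) for Acute-7d against Acute-2d, which did not pass the test. Its libraries gave 1101 and 1539.5 in Effector, 856 and 818 in T_Dysf, 978 and 854 in Acute-2d and 593 and 716 in Acute-7d. A near-identical copy, *Psma5-ps*, is listed as a gene of its own, and with the copies summed the Effector call against Acute-7d held (1.01, adjusted p = 0.0327).

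The β ring holds the catalytic sites. The 7 constitutive genes *Psmb1* to *Psmb7* summed to 18489.5 and 23800.0 in Effector, 17109 and 16760.2 in T_Dysf, 12728 and 12894 in Acute-2d and 12235 and 12638 in Acute-7d. Both T_Dysf libraries lay well above the 4 Acute libraries, which spanned 12235 to 12894. Of the 7 genes 6 rose in Effector against Acute-7d (all but *Psmb1*) and 5 against Acute-2d, and with Effector and T_Dysf together 6 rose. The median log2 fold change of T_Dysf was 0.54 against Acute-7d and 0.56 against Acute-2d, with *Psmb4* as the only call of the ring in each.

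*Psmb4* (chr3:94884093-94886961), a structural subunit without a catalytic site, was measured at 3859 and 4662 in Effector, 3659 and 3586 in T_Dysf, 2403 and 2527 in Acute-2d and 2396 and 2574 in Acute-7d. The 2 T_Dysf libraries differed little from each other and were above every Acute library. *Psmb4* rose in T_Dysf by 0.54 ± 0.10 (SE, adjusted p = 0.0422) on the log2 scale against Acute-7d and by 0.56 ± 0.10 (SE, adjusted p = 0.0334) against Acute-2d. In Effector it rose by 0.77 ± 0.10 (SE, adjusted p = 0.0187) against Acute-7d.

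*Psmb5* (chr14:54614119-54618022) encodes β5, the chymotrypsin-like site. Its libraries gave 1964 and 2661 in Effector, 1549.9 and 1727 in T_Dysf, 961 and 1144 in Acute-2d and 1091 and 1137 in Acute-7d. No T_Dysf library overlapped an Acute or an Effector library. The gene rose in Effector, by 1.04 ± 0.17 (SE, adjusted p = 0.0266) against Acute-7d and 1.12 ± 0.17 (SE, adjusted p = 0.0217) against Acute-2d. For T_Dysf the log2 fold change was 0.55 ± 0.17 (SE, adjusted p = 0.128) against Acute-7d, which did not pass. *Psmb6* (chr11:70525367-70527858), which encodes the caspase-like site β1, gave 2272 and 3106 in Effector, 1849.7 and 1884 in T_Dysf, 1487 and 1626 in Acute-2d and 1469 and 1601 in Acute-7d. It rose in Effector by 0.79 ± 0.16 (SE, adjusted p = 0.0377) against Acute-7d, and its value for T_Dysf was smaller at 0.28 ± 0.16 (SE, adjusted p = 0.34), without a call. *Psmb7* (chr2:38588036-38644087) encodes the trypsin-like site β2, and its gene overlaps *Nek6*, so that reads of the overlap may be shared if strand was not used in counting. Its level was 2188 and 3131 in Effector, 2059 and 1719 in T_Dysf, 1249.6 and 1157 in Acute-2d and 1134 and 1214 in Acute-7d. It rose in Effector by 1.16 ± 0.19 (SE, adjusted p = 0.0268) against Acute-7d, and was 0.68 ± 0.19 (SE, adjusted p = 0.107) in T_Dysf. *Nek6* gave 615 and 832 in Effector, 882 and 953 in T_Dysf, 122 and 106 in Acute-2d and 192 and 174 in Acute-7d. Its part in the *Psmb7* values was not tested. The order of the 3 catalytic genes by change against Acute-7d was the same in both conditions, *Psmb7* over *Psmb5* over *Psmb6*, with the same Acute-7d libraries in both. Against Acute-2d *Psmb5* and *Psmb7* were alike, at 1.12 and 1.12 in Effector and 0.64 and 0.65 in T_Dysf. *Psmb6* was lower there, at 0.77 and 0.26. The differences between these genes were not tested.

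*Psmb3* was lower in Acute-2d than in Acute-7d by value, with 2357 and 3279 in Effector, 2368 and 2155 in T_Dysf, 1287 and 1348 in Acute-2d and 1665 and 1516 in Acute-7d, and rose in Effector by 1.08 ± 0.17 (SE, adjusted p = 0.0223) against Acute-2d. *Psmb1* varied least of the ring, with 4139 and 4379 in Effector, 4059.6 and 4209 in T_Dysf, 4134 and 3817 in Acute-2d and 3528 and 3574 in Acute-7d. Its SD of log2 group means was 0.115, the second lowest of the 38 genes, and it was not called in any comparison.

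Promoter sequence was available for 32 of the 38 genes (RefSeq, GRCm38.p6, from 250 bases before the start to 50 after it). *Psmc3*, *Psmb2*, *Psmb7*, *Psmd7*, *Psmb1* and *Psmd3* were without an entry. They were searched on both strands for TGACNNNGC, the antioxidant response element bound by NRF1 (*Nfe2l1*), which is known to drive proteasome genes when proteasomes are inhibited, and for CCAAT and TGCGCA. TGACNNNGC was found in 6 of 32 (18.8%), against 14.0% of all promoters and 17.1% of those of genes with a mean of at least 50. CCAAT was found in 12 (37.5%), against 41.1% and 43.3%. TGCGCA was found in 6 (18.8%), against 8.79% and 17.2%. The share of each motif was thus near or below that of other genes with a mean of at least 50. Below are 4 promoters of genes that rose in Effector, the first 3 with TGACNNNGC in capitals and that of *Psmb3* with CCAAT in capitals, to show how the matches lie. The *Psmb5* match, TGACGTCGC, lies 39 to 47 bases before the start (chr14:54617946-54618245, minus strand). That of *Psmb6*, TGACGGAGC, lies 1 to 9 bases before it (chr11:70525107-70525406, plus strand). The *Psmd12* match is on the opposite strand, written GCTGTGTCA, and lies 239 to 247 bases before the start (chr11:107479278-107479577, plus strand). *Psmb3* has 2 CCAAT matches, at 81 to 85 and 39 to 43 bases before the start (chr11:97703184-97703483, plus strand).
Psmb5: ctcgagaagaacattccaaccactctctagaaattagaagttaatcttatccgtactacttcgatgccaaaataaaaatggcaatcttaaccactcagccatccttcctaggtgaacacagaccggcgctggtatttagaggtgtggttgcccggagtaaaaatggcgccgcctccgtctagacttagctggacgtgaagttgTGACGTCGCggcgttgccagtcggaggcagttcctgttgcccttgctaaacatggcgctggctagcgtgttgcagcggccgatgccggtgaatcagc
Psmb6: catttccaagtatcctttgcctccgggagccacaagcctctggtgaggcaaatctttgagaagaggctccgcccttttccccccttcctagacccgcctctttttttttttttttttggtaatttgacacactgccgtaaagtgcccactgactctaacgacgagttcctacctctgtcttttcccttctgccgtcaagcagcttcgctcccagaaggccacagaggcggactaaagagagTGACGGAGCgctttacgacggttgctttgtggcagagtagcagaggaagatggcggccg
Psmd12: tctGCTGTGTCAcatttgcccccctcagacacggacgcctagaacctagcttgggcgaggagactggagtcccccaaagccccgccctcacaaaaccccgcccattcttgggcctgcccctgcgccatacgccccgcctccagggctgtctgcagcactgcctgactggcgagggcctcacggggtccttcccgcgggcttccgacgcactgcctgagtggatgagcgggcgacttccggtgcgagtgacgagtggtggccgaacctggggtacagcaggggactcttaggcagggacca
Psmb3: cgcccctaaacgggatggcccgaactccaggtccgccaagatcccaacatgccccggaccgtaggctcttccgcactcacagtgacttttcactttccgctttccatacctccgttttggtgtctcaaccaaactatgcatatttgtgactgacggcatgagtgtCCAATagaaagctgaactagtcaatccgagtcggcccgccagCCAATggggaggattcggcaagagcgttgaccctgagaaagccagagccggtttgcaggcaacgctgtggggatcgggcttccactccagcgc

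Genes with and without the element were both among those that rose: of the 6 with TGACNNNGC, *Psmb5*, *Psmb6* and *Psmd12* rose in Effector against Acute-7d, and *Psmc6*, *Psmd9* and *Psme4* did not pass. A match of letters is not a binding site, and binding was not measured.

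The ATPase ring of the 19S base has 6 genes, *Psmc1* to *Psmc6*. They summed to 12616 and 18573 in Effector, 13172 and 11944 in T_Dysf, 8949 and 8698 in Acute-2d and 8621 and 9004 in Acute-7d. Here T_Dysf replicate 1 lay above Effector replicate 1, and both T_Dysf libraries were above the 4 Acute libraries. Of the 6 genes only *Psmc5* rose in Effector against Acute-7d, while *Psmc2*, *Psmc3* and *Psmc5* rose against Acute-2d. With Effector and T_Dysf together 5 of 6 rose, all but *Psmc6*. The median log2 fold change of T_Dysf was 0.51 against Acute-7d and 0.53 against Acute-2d, with 0 of 6 called by limma and 3 of 6 at an unadjusted p under 0.05 in each.

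*Psmc5* (chr11:106256154-106263120) gave 1729 and 2834 in Effector, 1656 and 1472 in T_Dysf, 888 and 927 in Acute-2d and 917 and 1049 in Acute-7d. It had the third largest rise of the called genes in Effector, 1.17 ± 0.25 (SE, adjusted p = 0.0414) against Acute-7d and 1.29 ± 0.25 (SE, adjusted p = 0.033) against Acute-2d, with Effector libraries that stood far apart. For T_Dysf the value was 0.67 ± 0.25 (SE, adjusted p = 0.172) against Acute-7d, without a call. *Psmc3* was higher in T_Dysf than in Effector replicate 1, with 3088 and 4554 in Effector, 3432 and 3406 in T_Dysf, 2039 and 2102 in Acute-2d and 2335 and 2137 in Acute-7d, and its T_Dysf value of 0.72 ± 0.19 (SE, adjusted p = 0.0782) against Acute-2d missed the threshold. *Psmc6* gave 1437 and 2107 in Effector, 1497 and 1264 in T_Dysf, 1522 and 1291 in Acute-2d and 1059.9 and 1253 in Acute-7d. Its Acute-2d libraries overlapped with Effector and T_Dysf, and no comparison called it.

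The other subunits of the base are the scaffolds *Psmd1* and *Psmd2* and the ubiquitin receptor *Psmd4* (Rpn10). *Psmd1* varied most of all 38 genes, with an SD of log2 group means of 0.666. Its level was 1938 and 3483 in Effector, 2035 and 1642 in T_Dysf, 1014 and 945 in Acute-2d and 1062 and 1237 in Acute-7d. Effector replicate 2 stood far above replicate 1, and the T_Dysf libraries lay above all Acute libraries. *Psmd1* had the largest rise in Effector against Acute-2d, 1.41 ± 0.30 (SE, adjusted p = 0.0418), and overlaps *Gm21972* on the genome. *Psmd4* changed less, with 2130.0 and 2550.1 in Effector, 2349 and 2275 in T_Dysf, 1842 and 1933 in Acute-2d and 1855 and 1914 in Acute-7d. T_Dysf and Effector libraries interleaved, both above the Acute libraries, and the gene rose only when Effector and T_Dysf were joined, by 0.30 ± 0.07 (SE, adjusted p = 0.0392). *Psmd2* gave 4397 and 6912 in Effector, 4676 and 4628 in T_Dysf, 3559 and 3873 in Acute-2d and 3573 and 3901 in Acute-7d. Its 2 Effector libraries were far apart, and no comparison called it.

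The lid holds 8 genes, and the 2 other subunits that rose in T_Dysf are among them. They summed to 19656 and 26209 in Effector, 15591 and 15257 in T_Dysf, 11809.7 and 11818 in Acute-2d and 11542 and 11668 in Acute-7d. The 4 Acute libraries were close together, and both T_Dysf libraries were well above them. In Effector 5 of 8 rose against Acute-7d (*Psmd7*, *Psmd8*, *Psmd12*, *Psmd13*, *Psmd14*), at a median of 1.0, the highest of the subcomplexes, and 3 rose against Acute-2d.

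*Psmd8* (chr7:29174188-29180701), which encodes the lid subunit Rpn12, gave 4373 and 4312 in Effector, 3171 and 3377 in T_Dysf, 2153 and 2397 in Acute-2d and 2119.8 and 2098 in Acute-7d. The replicates were close in every condition, so that 3 levels were separated: Effector, T_Dysf and the Acute conditions. *Psmd8* rose in T_Dysf by 0.63 ± 0.07 (SE, adjusted p = 0.0114) against Acute-7d and by 0.53 ± 0.07 (SE, adjusted p = 0.0135) against Acute-2d. It fell in T_Dysf against Effector, with a log2 fold change of -0.41 ± 0.07 (SE, adjusted p = 0.0219), and rose in Effector by 1.04 ± 0.07 (SE, adjusted p = 0.00653) against Acute-7d. Of the 38 genes it was the only one called in all of these 4 comparisons.

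*Psmd13* (chr7:140881968-140898643, Rpn9) had the largest rise in T_Dysf among the called genes. Its libraries gave 2842 and 3771 in Effector, 2749 and 2415 in T_Dysf, 1335 and 1208 in Acute-2d and 1515 and 1478 in Acute-7d. Both T_Dysf libraries were far above the highest Acute library and below the Effector libraries. The gene rose in T_Dysf by 1.02 ± 0.15 (SE, adjusted p = 0.0209) against Acute-2d and 0.78 ± 0.15 (SE, adjusted p = 0.047) against Acute-7d, and in Effector by 1.37 ± 0.15 (SE, adjusted p = 0.0131) against Acute-2d. *Psmd13* overlaps *Sirt3*, with the same limit as for *Psmb7*.

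*Psmd14* (chr2:61711694-61800376), which encodes the deubiquitinase Rpn11, gave 1559 and 2148 in Effector, 1494 and 1235 in T_Dysf, 860.4 and 703 in Acute-2d and 709.6 and 846 in Acute-7d. It rose in Effector by 1.24 ± 0.21 (SE, adjusted p = 0.0283) against Acute-7d. For T_Dysf the change was as large as that of *Psmd13*, 0.81 ± 0.21 (SE, adjusted p = 0.0918), but its replicates were further apart and it did not pass. *Psmd12* (Rpn5) gave 1652 and 2598 in Effector, 1470.0 and 1193 in T_Dysf, 1036 and 980.2 in Acute-2d and 784 and 919.9 in Acute-7d. Its rise in Effector against Acute-7d, 1.29 ± 0.24 (SE, adjusted p = 0.0341), was the largest of the called genes, and it was 0.64 ± 0.24 (SE, adjusted p = 0.188) in T_Dysf.

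*Psmd7* of the lid did not share the intermediate level in T_Dysf, and *Psmd3* did so only by the order of means. *Psmd7* (chr8:107580381-107588464), which encodes Rpn8, the partner of Rpn11, gave 2515 and 3721 in Effector, 1373 and 1597 in T_Dysf, 1614 and 1796 in Acute-2d and 1496 and 1639 in Acute-7d. T_Dysf and Acute libraries overlapped, and both lay below Effector. *Psmd7* rose in Effector by 0.97 ± 0.21 (SE, adjusted p = 0.0437) against Acute-7d and fell in T_Dysf against Effector, at -1.05 ± 0.21 (SE, adjusted p = 0.0346). *Psmd3* (Rpn3) gave 3661 and 5346 in Effector, 2542 and 2839 in T_Dysf, 2525 and 2752 in Acute-2d and 2709 and 2569.8 in Acute-7d. Its value in T_Dysf against Effector, -0.72 ± 0.19 (SE, adjusted p = 0.0701), did not pass, and against Acute-7d it was 0.03 ± 0.19 (SE).

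**Figure D3:**
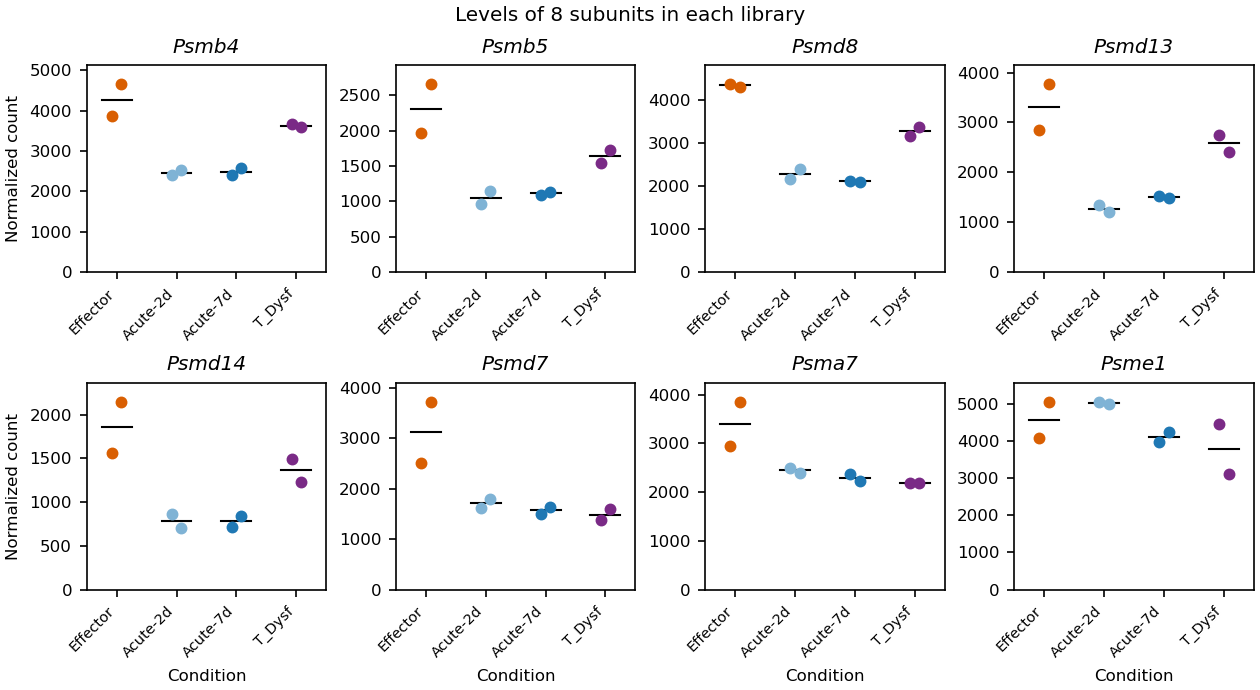
Normalized counts (vertical axes, from 0) of 8 subunits in each condition (horizontal axes). Points are the 2 libraries and the line is their mean. Psmb4, Psmb5, Psmd8, Psmd13 and Psmd14 show T_Dysf between Effector and the Acute conditions, Psmd7 and Psma7 show T_Dysf at or below the Acute level, and Psme1 shows overlapping conditions.

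The 3 chaperones of 19S assembly, *Psmd5*, *Psmd9* and *Psmd10*, which guide the ATPase ring and are no part of the finished particle, were not called in any comparison. They summed to 2079.8 and 2471 in Effector, 2283 and 2355 in T_Dysf, 1963 and 1854 in Acute-2d and 1726 and 2026 in Acute-7d. Effector and T_Dysf overlapped, and both were above the Acute libraries. *Psmd10* gave 728 and 766 in Effector, 834 and 888 in T_Dysf, 660.3 and 665 in Acute-2d and 469.7 and 648 in Acute-7d. It was 1 of 2 genes with a positive value in T_Dysf against Effector, 0.20 ± 0.16 (SE, adjusted p = 0.441). *Psmd5* gave 625 and 871 in Effector, 779 and 746 in T_Dysf, 638 and 667 in Acute-2d and 586 and 772 in Acute-7d. Its SD of log2 group means, 0.108, was the lowest of the 38 genes. *Psmd9* gave 726 and 834 in Effector, 670.0 and 721 in T_Dysf, 665 and 521 in Acute-2d and 671 and 605 in Acute-7d, with overlap between T_Dysf and Acute libraries.

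The activators bind the ends of the 20S core in place of the 19S particle. *Psme1* and *Psme2* encode PA28α and PA28β, which are interferon inducible and known for their part in antigen processing, *Psme3* encodes the nuclear PA28γ, and *Psme4* encodes PA200. As a group they summed to 10013 and 13324 in Effector, 9072 and 7839 in T_Dysf, 9095 and 8912 in Acute-2d and 8096 and 8511 in Acute-7d, and T_Dysf libraries lay within or below the range of the Acute libraries. *Psme3* and *Psme4* rose in Effector against Acute-2d, by 0.93 ± 0.19 (SE, adjusted p = 0.0393) and 0.62 ± 0.13 (SE, adjusted p = 0.0411). The *Psme3* libraries gave 3600.3 and 5345 in Effector, 2784 and 2985 in T_Dysf, 2360.2 and 2257 in Acute-2d and 2436 and 2599 in Acute-7d. T_Dysf was just above the Acute range, with a value of 0.20 ± 0.19 (SE, adjusted p = 0.584) against Acute-7d. *Psme4* gave 1553 and 2024 in Effector, 1450.0 and 1379 in T_Dysf, 1185 and 1125 in Acute-2d and 1225 and 1211 in Acute-7d, with T_Dysf again above all Acute libraries and 0.22 ± 0.13 (SE, adjusted p = 0.378) against Acute-7d.

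*Psme1* was the only gene of the 38 with a negative value for Effector against Acute-2d, -0.15 ± 0.20 (SE, adjusted p = 0.712). Its libraries gave 4099 and 5061 in Effector, 4477 and 3129.9 in T_Dysf, 5073 and 5005 in Acute-2d and 3982 and 4251 in Acute-7d. T_Dysf replicate 2 was the lowest library while replicate 1 lay among the other conditions, and no comparison called the gene. *Psme2* fell in T_Dysf, with log2 fold changes of -1.22 ± 0.10 (SE, adjusted p = 0.00485) against Effector and -0.50 ± 0.10 (SE, adjusted p = 0.0375) against Acute-2d, and rose in Effector against Acute-7d, by 0.87 ± 0.10 (SE, adjusted p = 0.015). It was measured at 761 and 894 in Effector, 360.5 and 345 in T_Dysf, 477 and 525 in Acute-2d and 453 and 450.5 in Acute-7d. The *Psme2* value is uncertain, because *Psme2b*, an intronless copy, was listed with 6139.7 and 8632 in Effector, 3788 and 4409.6 in T_Dysf, 6381 and 5871 in Acute-2d and 4577 and 5346 in Acute-7d, much more than the gene itself. Summed, both gave 6901 and 9525 in Effector, 4149 and 4755 in T_Dysf, 6857 and 6396 in Acute-2d and 5031 and 5796 in Acute-7d. With the copies summed the fall against Effector held (-0.87, adjusted p = 0.0396), while that against Acute-2d (-0.58, adjusted p = 0.12) and the rise in Effector against Acute-7d (0.59, adjusted p = 0.102) no longer passed.

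Near-identical copies, mostly processed pseudogenes, were found in the table for 11 of the 38 genes, 15 copies in all. A copy had at least 1% of the level of its gene and 95% identity or more over at least 200 bases, except *Psma5-ps*, which was taken by its name. The genes were *Psma2*, *Psma3*, *Psma4*, *Psma5*, *Psmb3*, *Psmb5*, *Psmc1*, *Psmd2*, *Psmd11*, *Psme1* and *Psme2*, and reads may have been divided between gene and copy. For *Psma3* the copies held more than the gene itself, with 1995 and 2825 in Effector, 2098 and 1667 in T_Dysf, 1645 and 1487 in Acute-2d and 1569 and 1570.2 in Acute-7d for gene and copies against 681 and 980.1 in Effector, 693 and 647 in T_Dysf, 601 and 554 in Acute-2d and 630.3 and 578 in Acute-7d for the gene alone. Of the 15 copies 12 were lower in T_Dysf replicate 1 than in replicate 2. With copies summed into their genes, 3 of 38 genes rose in T_Dysf against Acute-7d, 17 in Effector against Acute-7d and 22 with Effector and T_Dysf together.

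Among the 27 genes without such copies, levels were compared per kilobase of the longest transcript. The median was 1173 normalized counts per kilobase. The highest were *Psma6* (2751), *Psmb4* (2712), *Psmb6* (2396) and *Psma7* (2232), all of the 20S core. The lowest were *Psmd5* (162), *Psme4* (215), *Psmd9* (260.5) and *Psmd10* (495), so that all 3 assembly chaperones lay under the median of these 27 genes. The value of a gene depends on the transcript length used.

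The immunoproteasome genes did not follow the constitutive ones. *Psmb8*, *Psmb9* and *Psmb10* encode β5i, β1i and β2i, the replacements of β5, β1 and β2, and *Psmb9* overlaps *Tap1*, with the same limit as for *Psmb7*. *Tap1* gave 10474.5 and 13302 in Effector, 7259 and 7689 in T_Dysf, 14836 and 15945 in Acute-2d and 11638 and 11590 in Acute-7d. *Psmb8* gave 12703 and 14469.9 in Effector, 8529 and 9619 in T_Dysf, 15065 and 16915 in Acute-2d and 12814 and 12775 in Acute-7d. T_Dysf was the lowest condition, and *Psmb8* fell in T_Dysf, with log2 fold changes of -0.82 ± 0.11 (SE, adjusted p = 0.0164) against Acute-2d and -0.58 ± 0.11 (SE, adjusted p = 0.033) against Effector. Against Acute-7d its value was -0.50 ± 0.11 (SE, adjusted p = 0.0643), which did not pass. *Psmb9* gave 4283 and 5494 in Effector, 3139.6 and 3183 in T_Dysf, 4899 and 6039.5 in Acute-2d and 3591 and 4167 in Acute-7d, and *Psmb10* gave 2528 and 3942 in Effector, 2714 and 2947 in T_Dysf, 4013 and 3993 in Acute-2d and 3231 and 3708 in Acute-7d. No comparison of 2 conditions called *Psmb9* or *Psmb10*, and the value of *Psmb9* in T_Dysf against Acute-2d was -0.78 ± 0.17 (SE, adjusted p = 0.0505).

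The ratio of each immunoproteasome gene to its constitutive counterpart was lower in Effector and T_Dysf than in both Acute conditions. *Psmb8* over *Psmb5* was 6.47 and 5.44 in Effector, 5.50 and 5.57 in T_Dysf, 15.7 and 14.8 in Acute-2d and 11.7 and 11.2 in Acute-7d. *Psmb9* over *Psmb6* was 1.89 and 1.77 in Effector, 1.70 and 1.69 in T_Dysf, 3.29 and 3.71 in Acute-2d and 2.44 and 2.60 in Acute-7d. *Psmb10* over *Psmb7* was 1.16 and 1.26 in Effector, 1.32 and 1.71 in T_Dysf, 3.21 and 3.45 in Acute-2d and 2.85 and 3.05 in Acute-7d. For each ratio the 4 libraries of Effector and T_Dysf lay below the 4 Acute libraries without overlap. Effector and T_Dysf overlapped for *Psmb8* over *Psmb5* only. An exact permutation test of the F statistic over all ways to divide the libraries into 4 pairs gave p = 0.0286 for *Psmb8* over *Psmb5* (adjusted p = 0.0286 over the 3 ratios). The exact permutation p was 0.00952, the smallest this test can give, for both other ratios (adjusted p = 0.0143). The test asks for any difference among the conditions. With 2 libraries each, no exact test between 2 conditions can fall under 0.05. A ratio shows unequal change of its genes, from the rise of one, the fall of the other or both. *Psmb7* overlaps *Nek6* and *Psmb9* overlaps *Tap1*, and the part of these overlaps in the ratios was not tested.

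**Figure D4:**
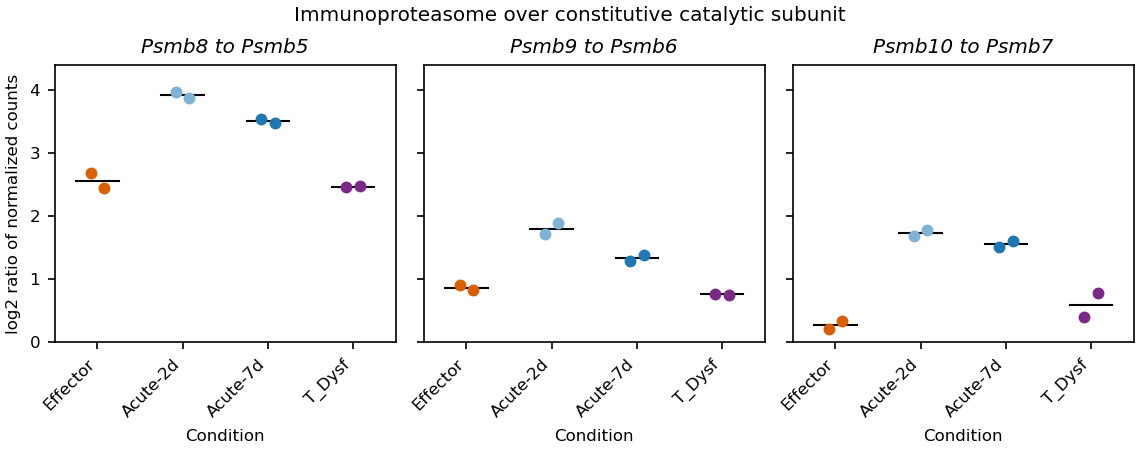
Log2 ratio of normalized counts (vertical axis, from 0) of each immunoproteasome gene to its constitutive counterpart, in each condition (horizontal axis). Points are the 2 libraries and the line their mean, and in all 3 panels the Effector and T_Dysf points lie below the Acute points.

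Of the factors that assemble the 20S core, *Pomp*, the maturation chaperone of the β ring, moved with the subunits. Its libraries gave 2356 and 2816 in Effector, 2007 and 1704 in T_Dysf, 1334 and 1236 in Acute-2d and 1334 and 1364 in Acute-7d. It rose in Effector by 0.93 ± 0.12 (SE, adjusted p = 0.0183) against Acute-7d and 1.0 ± 0.12 (SE, adjusted p = 0.0144) against Acute-2d, and was 0.45 ± 0.12 (SE, adjusted p = 0.0939) in T_Dysf against Acute-7d, which did not pass. Of the chaperones *Psmg1* to *Psmg4*, which build the α ring, *Psmg1* and *Psmg4* were lowest in T_Dysf. *Psmg1* gave 338 and 655 in Effector, 115 and 108 in T_Dysf, 314 and 380.0 in Acute-2d and 216 and 307 in Acute-7d. Both T_Dysf libraries lay far below all others, and *Psmg1* fell against Effector, at -2.07 ± 0.36 (SE, adjusted p = 0.0255), while against Acute-7d it was -1.21 ± 0.36 (SE, adjusted p = 0.117). *Psmg4* was measured at 271 and 331 in Effector, 198 and 239 in T_Dysf, 398 and 416 in Acute-2d and 289 and 293 in Acute-7d, and fell against Acute-2d, at -0.90 ± 0.14 (SE, adjusted p = 0.0214). *Psmg3* rose in Effector against Acute-7d by 1.27 ± 0.28 (SE, adjusted p = 0.0451), *Psmg2* was not called (0.07 ± 0.16, SE, in T_Dysf against Acute-7d, where *Psmg3* was at 0.27 ± 0.28), and the inhibitor *Psmf1* rose in Effector against Acute-7d by 0.47 ± 0.09 (SE, adjusted p = 0.0361).

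Other proteins bind the proteasome or deliver ubiquitin conjugates to it. Of 17 such genes 4 rose and 1 fell in Effector against Acute-7d, at a median log2 fold change of 0.30, and in T_Dysf against Acute-7d 0 of 17 passed by limma, at a median of 0.13, with 2 at an unadjusted p under 0.05. The deubiquitinase *Usp14* gave 1168 and 1752 in Effector, 754 and 693 in T_Dysf, 661 and 582 in Acute-2d and 509.9 and 723 in Acute-7d and rose in Effector against Acute-7d, by 1.23 ± 0.26 (SE, adjusted p = 0.0417), as did *Uchl5*, by 1.13 ± 0.25 (SE, adjusted p = 0.0495), with 1018 and 1487 in Effector, 870.2 and 673 in T_Dysf, 628 and 544 in Acute-2d and 493 and 643 in Acute-7d. The shuttle factor *Ubqln2* went the other way, with 867 and 975 in Effector, 1145 and 1133 in T_Dysf, 1514 and 1367 in Acute-2d and 1584 and 1407 in Acute-7d, and fell in the same comparison, at -0.70 ± 0.10 (SE, adjusted p = 0.0197). Of 6 genes for ubiquitin and its E1 enzymes 0 passed by limma in any comparison, with 1 or 2 at an unadjusted p under 0.05 in each but that between the Acute conditions, where 0 had one.

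*Nfe2l1*, whose product NRF1 is known to raise proteasome genes, gave 2277 and 2478 in Effector, 2470.3 and 3124 in T_Dysf, 1626 and 2187 in Acute-2d and 1891 and 2221 in Acute-7d. T_Dysf libraries were above all Acute libraries, and Effector libraries as well, but the value of 0.44 ± 0.20 (SE, adjusted p = 0.246) in T_Dysf against Acute-7d did not pass. Of 12 genes of its pathway 1 rose in T_Dysf against Acute-7d, *Ufd1*, a p97 cofactor, with 1188 and 1227 in Effector, 1455 and 1429.7 in T_Dysf, 1203 and 1238 in Acute-2d and 1219 and 1248 in Acute-7d and 0.23 ± 0.04 (SE, adjusted p = 0.0358). The small Maf gene *Maff* fell in Effector against Acute-7d, at -2.89 ± 0.31 (SE, adjusted p = 0.0138), with 42.9 and 60.2 in Effector, 277 and 209 in T_Dysf, 811 and 641 in Acute-2d and 473 and 309 in Acute-7d. *Mafk* fell as well, at -0.95 ± 0.13 (SE, adjusted p = 0.0207), with 1434 and 1595 in Effector, 3494 and 4179.5 in T_Dysf, 3296 and 2775 in Acute-2d and 3050.3 and 2811 in Acute-7d.

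The CCT chaperonin, which folds actin and tubulin, was high in Effector but not in T_Dysf. Its 8 genes summed to 47163 and 62732 in Effector, 33943 and 31842 in T_Dysf, 35021 and 34055 in Acute-2d and 31351 and 33655 in Acute-7d, and T_Dysf lay within the range of the Acute libraries. Of the 8 genes 6 rose in Effector against Acute-7d (median 0.82) and 6 fell in T_Dysf against Effector (median -0.79), while in T_Dysf against Acute-7d 0 passed by limma or at an unadjusted p under 0.05 (median 0.03). For the 38 proteasome genes the median of the last comparison was 0.39. The difference between the lists was not tested.

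Proliferation genes moved with the proteasome genes. A list of 18 cell cycle genes summed to 80572 and 141894 in Effector, 44516 and 40877 in T_Dysf, 22843 and 20080.2 in Acute-2d and 14657 and 25011 in Acute-7d. Effector replicate 2 was higher than replicate 1 here as well, and T_Dysf lay between Effector and the Acute conditions. In Effector against Acute-7d 17 of 18 rose (median 3.05), and in T_Dysf 0 of 18 passed by limma (median 1.80, 12 at an unadjusted p under 0.05). Their part in the proteasome result was not tested.

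The RESUB libraries were also compared among themselves. Within them Effector against Acute-7d replicate 1 gave a median log2 fold change of 0.83 for the 38 genes, positive in 38. Among the other 5 libraries T_Dysf against Acute-7d replicate 2 gave 0.39, positive in 33, and T_Dysf against Acute-2d gave 0.32, positive in 32. With a term for the prefix in the fit, 2 of 38 genes were called in Effector against Acute-7d and 0 in T_Dysf against Acute-7d. Scaling moved the level of all genes: after rescaling to equal 75th percentiles the median of genes with a mean of at least 50 was -0.09 for Effector against Acute-7d, where it had been 0.02. Relative to that median the 38 genes stood at 0.77 for Effector and at 0.37 for T_Dysf against Acute-7d, and after quantile normalization at 0.76 and 0.35.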

How the data were processed

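RNA of the sorted cells was made into libraries with poly(A) selection. The authors aligned the reads by STAR to mm10, quantified them to RefSeq transcripts in Partek Flow and normalized gene counts by the median ratio of DESeq2. Versions of STAR and DESeq2 are not given in the sources used here, nor is the strand setting of the counting. The deposited table holds a signal, the estimated count of each gene divided by the size factor of its library, and is called the normalized count here. In each library the low value that occurred most often was used as the value of 1 read. Only 53.3% of low values in T_Dysf replicate 1 and 73.2% to 75.8% in the other libraries were whole multiples of it (tolerance 0.02 reads), so count models were not fitted.

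All 24303 genes and 8 libraries entered 1 limma fit (version 3.58.1, R 4.3.3, eBayes with trend, 4 group means, no covariate, 4 residual and 0.888 prior degrees of freedom) on log2(normalized count + 1). Tests were two-sided and adjusted by Benjamini-Hochberg over all genes, and the procedure was tested on simulated data. No column was left out. A fold on this scale understates the change of low genes. The 38 genes, the lists and the tests were chosen with earlier results of these data known, so that none is independent evidence of a direction. Genes named with values were the catalytic subunits, activators, *Psmd14*, *Psmd4*, the chaperones, the 3 largest rises and falls among called genes of each comparison (the largest in size each way where none was called), and the 2 genes with the largest and the smallest SD of log2 group means. Others (*Psma1*, *Psma3*, *Psmc3*, *Psmc6*, *Psmd2*, *Psmd3*, *Cd79b*, *Ncr1*, *Klrb1c*, *Nek6*, *Tap1*) were added after their values were seen. A marker of the lists is not reported here. Copies were found with BLAST+ 2.17.0 among GENCODE vM21 transcripts, and coordinates are from the same annotation (GRCm38, the assembly of mm10). Promoters are RefSeq windows of GRCm38.p6. Ratios were tested with exact enumeration in Python 3.11.15. Alternatives were other pseudocounts (0.1, 10), filters, scalings, fits of the compared groups, a replicate block, a RESUB term, other thresholds, leaving out each library, and, added after the data were seen, summed copies and a fit of the day 19 libraries.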

Additional observations from a re-analysis of the deposited data

How the results depend on the processing

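The direction of every called gene stayed the same under each alternative run, while the number of calls among the 38 genes depended strongly on the processing. Counts are given for T_Dysf against Acute-7d, against Acute-2d and against Effector, then Effector against Acute-7d and Acute-2d, where the reported counts were 3, 4, 4, 18 and 15. They became 10, 12, 9, 29 and 28 when only genes with a mean, or with a maximum, of at least 50 were fitted. They were 5, 7, 0, 1 and 0 when only the groups compared were fitted. With a term for the RESUB libraries they were 0, 2, 0, 2 and 0. Unadjusted p under 0.05 was met by 19, 13, 11, 33 and 33 genes, and by 1 between the Acute conditions. A fold of at least 2 as well left 0, 1, 2, 9 and 7. With the day 19 libraries only, the first counts were 12 and 14. Rescaling to equal totals gave 26 and quantile normalization 24 for Effector against Acute-2d. For Effector and T_Dysf together against both Acute conditions (22 genes), the count was 8 with the RESUB term and 3 with the fold. The F test (8 genes) gave 29 with either filter, 22 with equal totals, 25 with quantile normalization, 2 with the RESUB term and 32 unadjusted. The filters changed both the number of genes tested and the rows from which the spread was estimated. The causes of these differences were not tested. Except for the day 19 libraries, the share of all genes called is not given for these alternatives. The counts alone therefore do not set the 38 genes apart from other genes. Leaving out each library in turn gave 0 to 12, 0 to 14, 1 to 24, 1 to 32 and 1 to 31 genes in the 5 comparisons, 0 between the Acute conditions, 3 to 31 for the conditions together and 1 to 30 for the F test. The highest of these came without Effector replicate 1, the Effector library with lower proteasome RNA (for T_Dysf against either Acute condition also without Effector replicate 2), and most low ones without a library of another condition, where the lone sample was assumed to vary like the rest. Without Effector replicate 1 the counts in the 5 comparisons were 12, 14, 24, 32 and 31, and without T_Dysf replicate 1 they were 0, 0, 1, 2 and 4. The median log2 fold change of the 38 genes moved beyond the spread of replicates only without an Effector library, between 0.54 and 1.02 for Effector against Acute-7d, 0.52 and 0.94 against Acute-2d, and -0.61 and -0.14 for T_Dysf against Effector. The 3 ratios kept p under 0.05 in every alternative run.

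Pairing of the libraries by replicate number was checked. Among the 12028 genes averaging at least 50 the correlation of replicate differences between conditions ran from -0.20 to 0.20, with 2 of 6 pairs of conditions over 0.1. For the 38 genes it ran from -0.23 (Effector with T_Dysf) to 0.35 (Acute-2d with T_Dysf). With 1 difference per condition this check cannot tell whether libraries of the same number share a mouse or culture. With the replicate number as a block the counts were 1, 3, 3, 9 and 8, with 12 for the conditions together and 6 for the F test. The lowest of the 38 genes had at least 388 reads in a library, a counting error of at most 5.07%, and only 2 libraries per condition limit the precision.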
